A study of Homo sapiens with 18 samples.

Results

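Genes for the subunits of potassium, calcium and sodium channels were followed through a differentiation of human embryonic stem cells toward beta-like cells, in RNA and in ribosome footprints. The members are all protein-coding genes of the count table whose symbols start with KCN and a letter, with CACNA, CACNB or CACNG, or with SCN, a number and A or B, leaving out KCNJ11. The rule used names and no measured value, and it found 135 genes among 57808 rows, 19032 of them protein-coding. The 135 hold 40 pore subunits of voltage-gated potassium (Kv) channels, 13 Kv partner subunits, 15 inward rectifiers (Kir), 15 two-pore-domain (K2P) channels and 12 subunits of potassium channels gated by calcium or sodium. They also hold 10 pore, 4 alpha2delta, 4 beta and 8 gamma subunits of voltage-gated calcium (Cav) channels, and 10 pore and 4 beta subunits of voltage-gated sodium (Nav) channels.

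All cells were of 1 line, MEL1 INSGFP/W, a human embryonic stem cell reporter in which the insulin promoter drives GFP. Undifferentiated cells (hPSC) and definitive endoderm (DE) were labelled RPL22-FLAG, a tagged ribosomal protein, in all of their libraries. Each of these stages gave RNA, total ribosome footprints (Ribo) and footprints from a FLAG pull-down (IP-Ribo). The last stage, beta-like cells made from the stem cells (sBC), was grown in stirred suspension and sorted by GFP. Their RNA came from cells labelled GFP+ or GFP-, with no tag named, and their FLAG footprints came from GFP+ cells labelled with an RPL22-FLAG lentivirus. No drug dose, age or day of differentiation is given. Every group had 2 libraries, 18 in all, and nothing says that they were separate cultures, so p-values measure the spread between libraries, which may be technical. The sBC libraries differ from those of hPSC and DE in stage, tag and depth at once, and these cannot be told apart.

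An ion channel is a pore through the membrane, and the balance of open pores sets a cell's voltage. In the pancreatic beta cell, closure of potassium channels depolarises the membrane, Nav and Cav channels then open, and the calcium that enters triggers the release of insulin granules. Kv and calcium-gated potassium channels end each spike, while K2P and Kir channels hold the resting voltage. Alpha2delta, beta and other partner subunits carry no current themselves but move pores to the surface and tune their opening.

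In units of 1000000 counts, library totals were 79.77 to 92.53 in RNA of hPSC and DE, 27.36 to 37.65 in RNA of sBC, and 6.61 to 30.17 in footprints. The 135 members together had 37563 to 119208 counts in an RNA library, 6023 and 8290 in the sBC footprints, but 723 to 2061 in a footprint library of hPSC or DE. Levels are CPM, counts scaled to a library total of 1000000, adjusted by trimmed mean of M-values (TMM) within RNA and within footprint libraries. CPM is not divided by gene length, so no levels are compared between genes. Stage markers followed the labels: POU5F1 had 1836 and 1868 CPM in hPSC RNA, SOX17 469 and 471 in DE RNA, and INS 4397 and 4828 in GFP+ and 1702 and 981 in GFP- sBC RNA. In GFP+ sBC all 12 islet endocrine markers and 8 of 10 beta cell markers reached 1 CPM, but MAFA, a factor of mature beta cells, had 0.287 and 1.36 CPM and GCG, the glucagon gene of alpha cells, had 30778 and 20167. In bulk samples such as these, fewer cells that use a gene and less RNA per cell cannot be told apart.

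More channel genes were detected in sBC than in hPSC or DE. A mean of 1 CPM or more was reached in RNA by 64 of 135 members in hPSC (47.4%), 56 in DE (41.5%), 88 in GFP- sBC (65.2%) and 88 in GFP+ sBC (65.2%). Over all protein-coding genes the shares were 68.5%, 67.7%, 73.5% and 69.6%. The summed level of the members was 556 CPM in hPSC, 754 in DE, 2167 in GFP- sBC and 3161 in GFP+ sBC. In footprints 18 members reached 1 CPM in hPSC Ribo, 21 in DE Ribo, 13 in hPSC IP-Ribo, 16 in DE IP-Ribo and 59 in GFP+ sBC IP-Ribo (43.7%). In DE IP-Ribo only 7 of the 16 did so in both libraries. Of all protein-coding genes 57%, 59.1%, 55.5%, 58% and 64.7% reached 1 CPM in these footprint groups, in the same order. Across all 9 groups 28 members reached 1 CPM in none and 5 in every one. In the 28 are the skeletal muscle calcium channel CACNA1S, the sensory neuron sodium channel SCN10A and the calcium-gated KCNN4. The plot of members detected shows the counts by family, to be read against these shares of all protein-coding genes. In RNA, Kv pores went from 18 in hPSC to 27 in both sBC groups and Kir from 4 to 10 in GFP- and 9 in GFP+ sBC, while alpha2delta subunits had 3 in all 3 groups and Nav beta subunits went from 3 to 2.

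**Figure D1:**
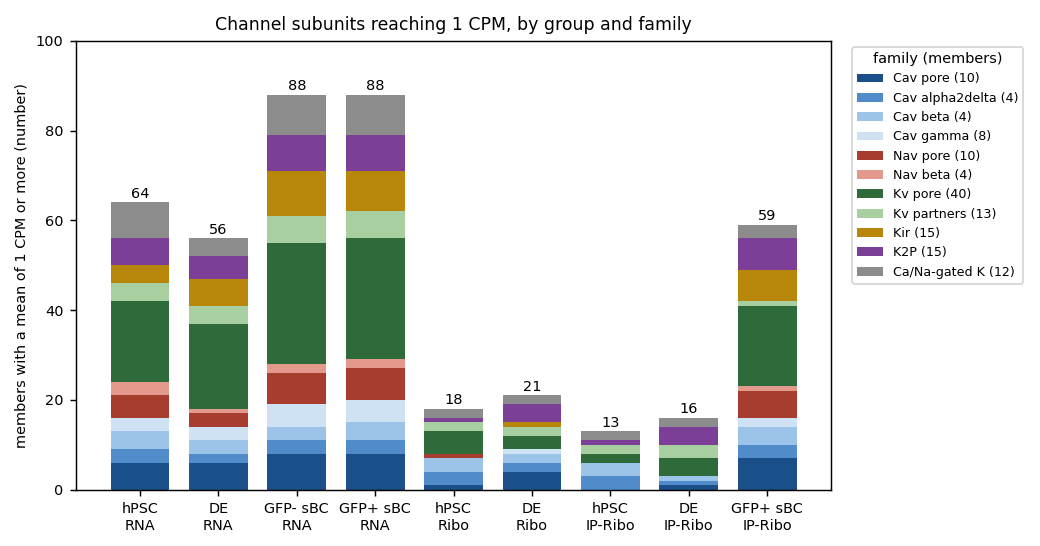
Members with a mean of 1 CPM or more in each of the 9 groups, stacked by family; the y axis counts members and the legend gives family sizes. RNA bars rise from 64 and 56 in hPSC and DE to 88 in both sBC groups, and IP-Ribo bars from 13 and 16 to 59.

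Of the 106 members at 1 CPM in at least 1 RNA group, 21 had their highest mean in hPSC, 19 in DE, 20 in GFP- sBC and 46 in GFP+ sBC. Among these 46 were 15 Kv pores, 6 Kir, 5 Cav pores, 5 calcium- or sodium-gated potassium channel subunits and 4 Nav pores. Kv partners went otherwise, with 4 of 9 highest in DE and 1 in GFP+ sBC. The group of the highest mean was not counted over all genes, so these counts do not show a lean particular to channel genes. The heat map shows the 57 members at 10 CPM or more in an RNA group, which were picked by these same means.

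**Figure D2:**
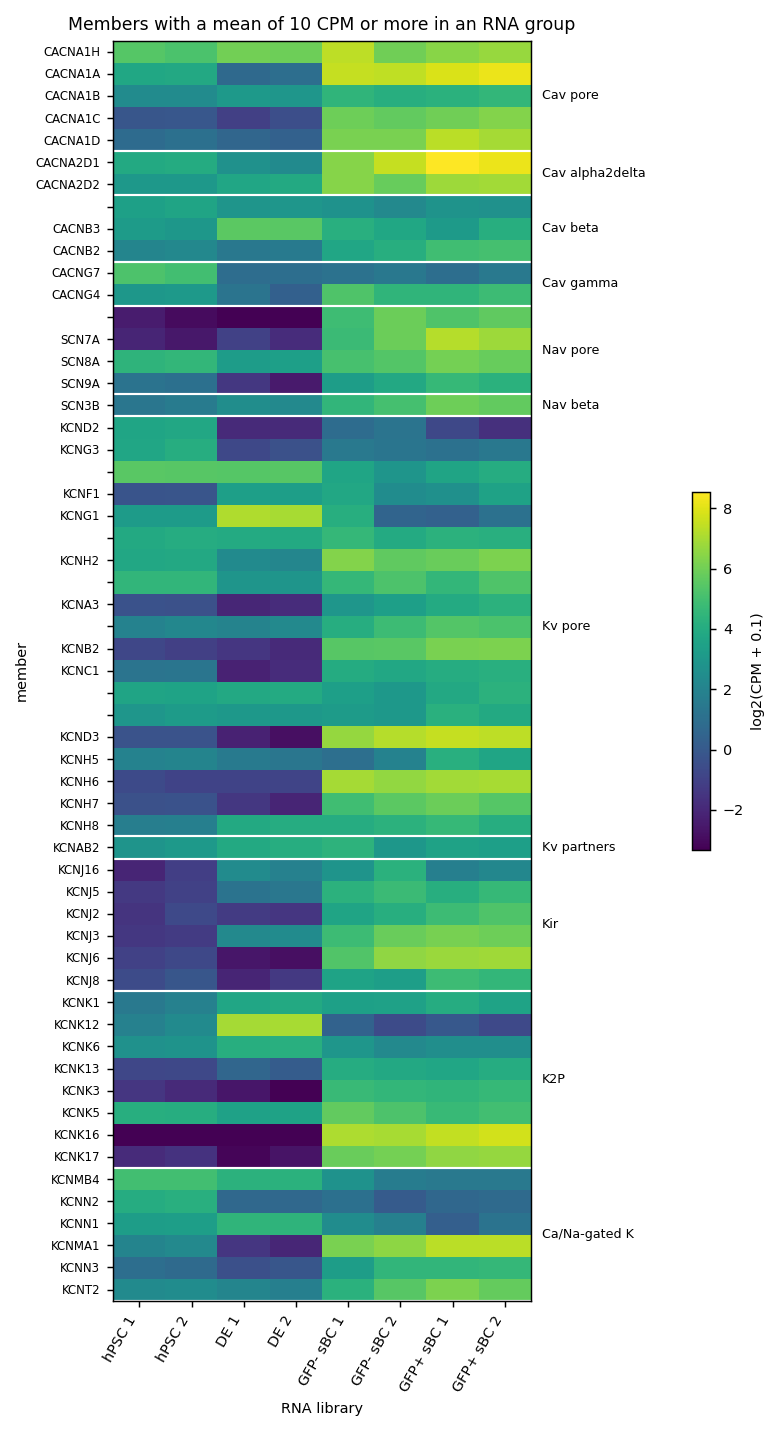
Level of the 57 members with a mean of 10 CPM or more in an RNA group, in each of the 8 RNA libraries (columns), as log2(CPM + 0.1), with members grouped by family and part of them labelled. Of these rows 31 are highest in GFP+ sBC, 11 in GFP- sBC, 8 in DE and 7 in hPSC.

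Fold changes were tested with edgeR's quasi-likelihood method with Benjamini-Hochberg adjustment over all genes tested, and a change was called at an adjusted p under 0.05. Log2 fold changes are given with their standard error (SE). Between GFP+ sBC and hPSC RNA, 60 of 124 members tested were higher (48.4%) and 25 lower (20.2%), where 30.4% of all genes were called higher and 30.9% lower. The median log2 fold change was 0.99 for the members and 0.04 for all genes. Against DE, 66 were higher (53.2%) and 19 lower (15.3%), beside 29.9% and 30.9% of all genes. GFP- sBC against hPSC gave 61 higher (49.2%) and 23 lower (18.5%), beside 31.2% and 28.3%. These 3 comparisons share libraries and are not independent of each other. The family counts that follow are to be read against these shares of all genes. In the step from hPSC to DE the members leaned the other way, with 33 of 110 higher (30%) and 59 lower (53.6%), beside 38.7% and 36.8% of all genes (75.6% called either way). The sum of 92 called was 61 when the spread was taken from all 8 RNA libraries. The 3 comparisons of sBC above took their spread from those 8 libraries.

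Calcium channel pores were among the subunits that rose. Of 9 tested between GFP+ sBC and hPSC, 6 were higher in RNA and 1 was lower. In FLAG footprints the 8 that passed the filter on low counts were all higher, where 30.4% of all genes were called higher in that comparison. A gene that passes such a filter only through the group where it is high had to differ. So no count of a family here, in RNA or in footprints, stands for all its members. CACNA1A, the pore of P/Q-type channels, had 13.5 and 14.5 CPM in hPSC, 1.57 and 1.85 in DE, 182 and 170 in GFP- sBC, and 234 and 297 in GFP+ sBC. All 4 sBC libraries lay above both hPSC libraries, and DE lay below them (log2 fold change GFP+ sBC over hPSC 4.25 ± 0.22, adjusted p = 9.06e-06; DE over hPSC -2.98 ± 0.12, adjusted p = 3.33e-09). Its FLAG footprints were 0.678 and 0.552 CPM in hPSC, 0.556 and 0.114 in DE, and 29.9 and 53.9 in GFP+ sBC, so the sBC libraries again stood apart from the other 4 (6.10 ± 0.57, adjusted p = 1.29e-04).

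CACNA1D, an L-type pore that opens at low voltage, had 1.66 and 2.01 CPM in hPSC, 1.39 and 1.19 in DE, 70.7 and 72.4 in GFP- sBC, and 160 and 122 in GFP+ sBC. Both GFP+ libraries were the highest and no sBC library overlapped with hPSC (6.26 ± 0.26, adjusted p = 6.22e-06). Its gene overlaps CHDH on the opposite strand, and whether counting used strand is not given in the sources used here. FLAG footprints were 0.0484 and 0.0425 CPM in hPSC, 0.111 and 0.152 in DE, and 27 and 28.3 in GFP+ sBC, with the sBC libraries far above the rest (9.06 ± 0.42, adjusted p = 1.63e-05).

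CACNA1C, the L-type pore of heart and smooth muscle that beta cells also use, had 0.794 and 0.844 CPM in hPSC, 0.379 and 0.628 in DE, 61.4 and 52.3 in GFP- sBC, and 63.7 and 81.1 in GFP+ sBC. The hPSC and DE libraries were all under 1 CPM and all 4 sBC libraries above 50 (6.46 ± 0.33, adjusted p = 9.19e-06). Its FLAG footprints were 0 and 0.0425 CPM in hPSC, 0 and 0 in DE, and 6 and 10 in GFP+ sBC, and at 0 counts in DE the sBC level was at least 73-fold higher, with 3 counts over the group as the floor.

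T-type pores, which open near rest, moved differently from each other. CACNA1H had 42.5 and 36.9 CPM in hPSC, 64.9 and 61 in DE, 166 and 63.2 in GFP- sBC, and 85.9 and 105 in GFP+ sBC. The 4 sBC libraries spread over a wide range but all lay above hPSC (1.26 ± 0.40, adjusted p = 0.028). That call was lost without any 1 of the 4 libraries (adjusted p = 0.0536 to 0.137). CACNA1G had 5.28 and 5.04 CPM in hPSC, 0.0785 and 0.157 in DE, 2.79 and 2.17 in GFP- sBC, and 2.98 and 4.29 in GFP+ sBC. DE lay far below the other 3 groups (-5.38 ± 0.25, adjusted p = 1.05e-08 against hPSC). CACNA1I had 1.88 and 1.62 CPM in hPSC, 3.03 and 3.22 in DE, 0.437 and 0.235 in GFP- sBC, and 0.717 and 0.693 in GFP+ sBC, highest in DE and lower in GFP+ sBC than in hPSC (-1.31 ± 0.35, adjusted p = 0.0139), which did not pass without any 1 of the 4 libraries (adjusted p = 0.0508 to 0.0837). CACNA1E, the R-type pore, was likewise highest in DE, at 5.68 and 5.67 CPM beside 0.75 and 0.858 in hPSC and 2.55 and 2.98 in GFP+ sBC (2.87 ± 0.15, adjusted p = 3.15e-08).

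The retinal pore CACNA1F had little RNA, 0.868 and 1.1 CPM in hPSC, 0.576 and 0.589 in DE, 1.45 and 0.558 in GFP- sBC, and 1.95 and 0.533 in GFP+ sBC, and its GFP+ libraries overlapped with hPSC. In FLAG footprints it had 0.726 and 1.15 CPM in hPSC, 0.223 and 0.53 in DE, and 8.45 and 4.54 in GFP+ sBC, and the sBC libraries were higher (2.81 ± 0.58, adjusted p = 0.00445). CACNA1B, the N-type pore, had 5.16 and 5.25 CPM in hPSC and 19.1 and 23.5 in GFP+ sBC RNA (2.03 ± 0.23, adjusted p = 2.28e-04).

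Among the subunits that accompany Cav pores, 2 of 4 alpha2delta genes, 1 of 4 beta genes and 5 of 7 gamma genes tested were higher in GFP+ sBC RNA than in hPSC, while 1, 2 and 2 were lower. Of the gamma genes called higher, CACNG1 and CACNG2 reached 1 CPM in no group. CACNG1 had 0 counts in hPSC and DE and 15 over both GFP+ libraries. It passed the filter only through sBC, so its call is no support. CACNA2D1, the alpha2delta subunit that binds gabapentin, had 14.9 and 15.8 CPM in hPSC, 6.32 and 5.1 in DE, 85.5 and 185 in GFP- sBC, and 376 and 297 in GFP+ sBC. GFP+ libraries were highest, GFP- next and DE lowest, with no overlap between these groups (4.45 ± 0.40, adjusted p = 7.66e-05 over hPSC). FLAG footprints of CACNA2D1 were 3.29 and 1.91 CPM in hPSC, 0.556 and 0.682 in DE, and 178 and 298 in GFP+ sBC, the sBC libraries far above the rest (6.54 ± 0.43, adjusted p = 2.94e-05).

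CACNA2D2 had 8.05 and 7.92 CPM in hPSC, 12.8 and 14.6 in DE, 85.4 and 55.7 in GFP- sBC, and 111 and 120 in GFP+ sBC. Both sBC groups lay above hPSC and DE (3.85 ± 0.26, adjusted p = 2.37e-05). CACNA2D3 behaved in another way: its RNA was 3.78 and 3.8 CPM in hPSC, 0.759 and 0.654 in DE, 3.84 and 2.61 in GFP- sBC, and 4.82 and 4.93 in GFP+ sBC, low in DE and near the hPSC level in sBC. The FLAG footprints of CACNA2D3 were 3.39 and 3.86 CPM in hPSC, 0.223 and 0.265 in DE, and 1.72 and 1.86 in GFP+ sBC. DE was lowest there too (-3.96 ± 0.54, adjusted p = 0.00378 for DE over hPSC). The CACNA2D3 gene overlaps the transcripts ESRG and CACNA2D3-AS1, with no strand given, and LRTM1 on the opposite strand.

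Beta subunits bind the inner side of the pore and bring it to the membrane. CACNB3 peaked in DE: its RNA was 8.94 and 7.79 CPM in hPSC, 46.5 and 46.4 in DE, 18 and 13.5 in GFP- sBC, and 8.72 and 17.1 in GFP+ sBC. The DE libraries did not overlap with any other (2.52 ± 0.08, adjusted p = 5.15e-10 over hPSC), and GFP+ sBC was not called against hPSC. Total footprints moved the same way, with 1.28 and 1.43 CPM in hPSC and 6.19 and 6.58 in DE (2.26 ± 0.25, adjusted p = 0.00408), a call lost without hPSC Ribo replicate 1 or 2 (adjusted p = 0.0761 to 0.079). CACNB2 instead had 4.13 and 4.56 CPM in hPSC, 2.62 and 2.74 in DE, 13.1 and 17.5 in GFP- sBC, and 29.8 and 33.1 in GFP+ sBC, highest in GFP+ sBC (2.86 ± 0.24, adjusted p = 4.8e-05). CACNB4 RNA was highest in hPSC, with 6.13 and 5.91 CPM in hPSC, 0.876 and 0.681 in DE, 0.691 and 0.617 in GFP- sBC, and 1.03 and 1.07 in GFP+ sBC. It fell in DE (-2.90 ± 0.16, adjusted p = 4.9e-08) and in GFP+ sBC (-2.52 ± 0.30, adjusted p = 2.54e-04). Its FLAG footprints did not mirror this, with 10 counts over both hPSC libraries and 39 over both GFP+ sBC libraries, which were shallower. They did not pass the filter on low counts and were not tested.

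Gamma genes also split. CACNG7, a regulator of AMPA receptors, had 37.4 and 30.6 CPM in hPSC, 1.77 and 1.88 in DE, 2.12 and 2.56 in GFP- sBC, and 1.84 and 2.72 in GFP+ sBC. Only the hPSC libraries were above 3 CPM (-4.17 ± 0.13, adjusted p = 2.91e-09 for DE, -3.90 ± 0.29, adjusted p = 3.38e-05 for GFP+ sBC, each over hPSC). CACNG4, another AMPA receptor regulator, had 7.81 and 8.4 CPM in hPSC, 2.26 and 1.13 in DE, 38.5 and 22 in GFP- sBC, and 21.9 and 27.9 in GFP+ sBC. Its sBC libraries were the highest (1.62 ± 0.39, adjusted p = 0.00848), though not without hPSC RNA replicate 1 or 2 (adjusted p = 0.0504 to 0.0602). CACNG5, a relative of CACNG7, went from 0.368 and 0.492 CPM in hPSC to 9.66 and 8.18 in GFP+ sBC RNA, and from 0.145 and 0.17 to 6 and 5.36 in FLAG footprints (5.13 ± 0.63, adjusted p = 6.79e-04).

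Sodium channel pores passed the test in both directions: 5 of 9 tested were higher and 2 lower in GFP+ sBC RNA than in hPSC. Of the 10 pores, 5 lie near each other on chromosome 2: SCN3A (chr2:165087526-165204050) and SCN2A (chr2:165239414-165392304, plus strand), then SCN1A (chr2:165984641-166149161, minus strand), SCN9A (chr2:166195185-166375987, minus strand) and SCN7A (chr2:166403573-166494249, minus strand; RefSeq, GRCh38.p14). Of these, 4 rose in GFP+ sBC over hPSC and SCN1A, which lies among them, fell.

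SCN7A, an atypical member known as a sodium sensor, had 0.132 and 0.0703 CPM in hPSC, 0.392 and 0.183 in DE, 27.5 and 59.9 in GFP- sBC, and 149 and 111 in GFP+ sBC. The 4 sBC libraries stood above all others, GFP+ above GFP-, though that last gap was not called (10.30 ± 0.67, adjusted p = 2.01e-05 over hPSC; 1.56 ± 0.45, adjusted p = 0.146 for GFP+ over GFP-). The gap passed by DESeq2 (adjusted p = 0.0155) and without GFP- replicate 1 or 2 (adjusted p = 0.0421 and 0.00119). FLAG footprints were 0 and 0 CPM in hPSC, 0 and 0.0379 in DE, and 8.21 and 8.62 in GFP+ sBC, and with 0 counts in hPSC the sBC level was at least 126-fold higher. SCN3A, a channel of the embryonic brain, had 0.0883 and 0.0281 CPM in hPSC, 0 and 0 in DE, 29.5 and 58.6 in GFP- sBC, and 38.3 and 49.5 in GFP+ sBC. DE had 0 counts in both libraries, so GFP+ sBC was at least 3233-fold higher than DE, and its FLAG footprints at 9.56 and 15.8 CPM were at least 116-fold higher.

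SCN9A, the channel of pain-sensing neurons that beta cells also express, had 2.21 and 2 CPM in hPSC, 0.275 and 0.0785 in DE, 9.58 and 14.2 in GFP- sBC, and 24.9 and 19.3 in GFP+ sBC. It was lowest in DE and highest in GFP+ sBC, and those groups did not overlap (-3.51 ± 0.37, adjusted p = 2.41e-05 for DE and 3.39 ± 0.45, adjusted p = 4.87e-04 for GFP+ sBC, each over hPSC). SCN2A rose from 0.971 and 0.745 CPM in hPSC to 3.7 and 5.65 in GFP+ sBC (2.44 ± 0.58, adjusted p = 0.00781), a call lost without hPSC RNA replicate 2 (adjusted p = 0.063). SCN1A did the opposite: it had 1.46 and 1.52 CPM in hPSC, 0.0392 and 0 in DE, 0.391 and 0.822 in GFP- sBC, and 0 and 0 in GFP+ sBC. With 0 counts in GFP+ sBC, its hPSC level was at least 25.3-fold higher. SCN1A and SCN9A both overlap the antisense transcript SCN1A-AS1.

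Away from that stretch, SCN8A, a channel of axons, had 21.3 and 23.4 CPM in hPSC, 9.27 and 10.2 in DE, 33.8 and 41.9 in GFP- sBC, and 66.2 and 55.2 in GFP+ sBC (1.44 ± 0.21, adjusted p = 7.03e-04 for GFP+ sBC over hPSC). SCN4A, the skeletal muscle channel, had 7.61 and 8.41 CPM in hPSC, 6.41 and 6.48 in DE, 0.23 and 0.147 in GFP- sBC, and 0.115 and 0.32 in GFP+ sBC, so both sBC groups were near the floor of 3 counts (-5.18 ± 0.46, adjusted p = 7.42e-05).

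Sodium channel beta subunits anchor the pore and shift its gating. Of 4 tested, 1 was higher and 2 were lower in GFP+ sBC RNA than in hPSC. SCN3B had 2.47 and 2.98 CPM in hPSC, 5.52 and 4.7 in DE, 22.4 and 33.1 in GFP- sBC, and 60.6 and 52.6 in GFP+ sBC, and every sBC library was above hPSC and DE (4.37 ± 0.29, adjusted p = 2.05e-05).

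Voltage-gated potassium channel pores formed the largest family, with 19 of 37 tested higher and 6 lower in GFP+ sBC RNA than in hPSC. Of all genes 30.4% were higher and 30.9% lower there. In FLAG footprints 15 of the 21 that passed the filter were higher and none lower, beside 30.4% and 28.5% of all genes. Only 2 Kv pores reached 1 CPM in hPSC IP-Ribo and 4 in DE, against 18 in GFP+ sBC. The 21 passed the filter mainly through counts in sBC, so this footprint count is no support. KCNH6, a relative of the cardiac channel KCNH2, had 0.544 and 0.422 CPM in hPSC, 0.432 and 0.445 in DE, 123 and 98.4 in GFP- sBC, and 119 and 127 in GFP+ sBC. All 4 sBC libraries were near 100 CPM and all hPSC and DE libraries under 1 (7.99 ± 0.28, adjusted p = 5.5e-06). Its FLAG footprints were 0.0484 and 0.127 CPM in hPSC, 0 and 0.0379 in DE, and 26.6 and 38.6 in GFP+ sBC, with the sBC libraries apart from the others (8.41 ± 0.51, adjusted p = 2.4e-05).

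KCNH2 itself was present before, with 13.7 and 14.4 CPM in hPSC, 5.09 and 4.32 in DE, 81.4 and 50.5 in GFP- sBC, and 56.7 and 73 in GFP+ sBC, and was higher in all sBC libraries (2.21 ± 0.28, adjusted p = 3.97e-04). KCNH7, of the same group, had 0.662 and 0.689 CPM in hPSC, 0.275 and 0.131 in DE, 30 and 47.3 in GFP- sBC, and 59.2 and 42.3 in GFP+ sBC, and only sBC libraries were above 1 CPM (6.23 ± 0.42, adjusted p = 2.31e-05). KCNH8, of the elk group, was already high in DE: it had 3.25 and 3.42 CPM in hPSC, 14.8 and 16.4 in DE, 16 and 19.9 in GFP- sBC, and 24.9 and 16.7 in GFP+ sBC (2.28 ± 0.10, adjusted p = 8.25e-09 for DE, 2.64 ± 0.27, adjusted p = 1.37e-04 for GFP+ sBC). The FLAG footprints of KCNH8 were 0.145 and 0.212 CPM in hPSC, 0.668 and 0.606 in DE, and 0.123 and 0.583 in GFP+ sBC, under 1 CPM in all 6 libraries.

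KCND3, a pore of fast-inactivating A-type currents, had 0.721 and 0.717 CPM in hPSC, 0.118 and 0.0393 in DE, 101 and 149 in GFP- sBC, and 180 and 165 in GFP+ sBC. The sBC libraries lay above 100 CPM and DE below hPSC (7.90 ± 0.39, adjusted p = 8.9e-06). Its paralog KCND2 ran the other way: it had 12.4 and 13.9 CPM in hPSC, 0.17 and 0.17 in DE, 1.73 and 2.29 in GFP- sBC, and 0.487 and 0.213 in GFP+ sBC. hPSC stood above every other library (-6.21 ± 0.17, adjusted p = 1.93e-10 for DE, -5.23 ± 0.43, adjusted p = 5.21e-05 for GFP+ sBC), and FLAG footprints of KCND2 were likewise lower in DE than in hPSC, 0.111 and 0.152 against 1.16 and 1.32 CPM (-3.25 ± 0.88, adjusted p = 0.0377). The footprint call of KCND2 was lost without any 1 of the 4 libraries (adjusted p = 0.131 to 0.185). In GFP+ sBC the FLAG footprints of KCND2 overlapped with those of hPSC and were not called (0.33 ± 0.74, adjusted p = 0.719). KCND3 lies in a locus with the antisense transcript KCND3-AS1.

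KCNB2 is a pore of delayed rectifier currents, which repolarise the cell. It had 0.485 and 0.38 CPM in hPSC, 0.262 and 0.17 in DE, 43.9 and 46.4 in GFP- sBC, and 72 and 73.8 in GFP+ sBC, higher in all 4 sBC libraries than in any hPSC or DE library (7.39 ± 0.29, adjusted p = 5.82e-06). FLAG footprints of KCNB2 were 0.726 and 0.17 CPM in hPSC, 0.223 and 0.152 in DE, and 16.1 and 21.1 in GFP+ sBC, and the sBC libraries again stood apart.

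The silent Kv subunits, which make no channel alone but join other Kv pores, had stage patterns of their own. KCNG1 peaked in DE: it had 9.03 and 9.14 CPM in hPSC, 142 and 126 in DE, 17.6 and 1.32 in GFP- sBC, and 1.18 and 2.05 in GFP+ sBC. DE did not overlap with any other group (3.93 ± 0.07, adjusted p = 1.25e-11), and GFP- replicate 1 stood well above its replicate. The same peak appeared in FLAG footprints, 0.775 and 0.552 CPM in hPSC, 18.4 and 11.5 in DE, and 1.1 and 0 in GFP+ sBC (4.34 ± 0.90, adjusted p = 0.0205), and in total footprints, 1.23 and 0.952 CPM in hPSC and 11.1 and 12.4 in DE (3.46 ± 0.25, adjusted p = 0.00155). The FLAG call was lost without hPSC IP-Ribo replicate 1 or 2 or DE IP-Ribo replicate 1 (adjusted p = 0.0931 to 0.165), and the total footprint call without hPSC Ribo replicate 1 or 2 (adjusted p = 0.0517 to 0.0612). KCNG3 was highest in hPSC, with 12.9 and 16.7 CPM in hPSC, 0.497 and 0.681 in DE, 2.67 and 2.35 in GFP- sBC, and 2.04 and 2.64 in GFP+ sBC (-4.59 ± 0.18, adjusted p = 1.68e-08 for DE). KCNF1 rose in DE and kept that level in sBC: its RNA was 0.736 and 0.788 CPM in hPSC, 10.3 and 10.1 in DE, 14 and 5.4 in GFP- sBC, and 6.08 and 11.2 in GFP+ sBC (3.79 ± 0.13, adjusted p = 1.29e-09 for DE, 3.50 ± 0.52, adjusted p = 8.84e-04 for GFP+ sBC).

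KCNA3, a pore of the Shaker group, had 0.706 and 0.675 CPM in hPSC, 0.144 and 0.183 in DE, 7.46 and 10.3 in GFP- sBC, and 15.1 and 19.8 in GFP+ sBC. Only sBC libraries were above 5 CPM (4.65 ± 0.32, adjusted p = 2.27e-05). KCNA4, another pore of that group, had 0 and 0.0422 CPM in hPSC, 0 and 0.0262 in DE, 3.52 and 6.08 in GFP- sBC, and 8.2 and 5.14 in GFP+ sBC. Every sBC library was above 3 CPM (8.13 ± 0.89, adjusted p = 1.93e-04). KCNA4 passed the filter only through sBC, so its call is no support.

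KCNC1, a pore that closes fast and serves rapid firing, had 2.29 and 2.39 CPM in hPSC, 0.118 and 0.183 in DE, 15.9 and 13.9 in GFP- sBC, and 16.1 and 18.1 in GFP+ sBC, lowest in DE and highest in sBC (2.87 ± 0.26, adjusted p = 7.01e-05). KCNC4, of the same group, was not called, with 12.1 and 11.8 CPM in hPSC and 14.3 and 19.5 in GFP+ sBC. KCNS1, a silent subunit, had 1.93 and 1.65 CPM in hPSC, 0.144 and 0.105 in DE, 0 and 0.0587 in GFP- sBC, and 0 and 0 in GFP+ sBC. With 0 counts in GFP+ sBC, its hPSC level was at least 30.3-fold higher. KCNS3, another silent subunit, was not called, with 22.2 and 22.5 CPM in hPSC and 23.4 and 38.4 in GFP+ sBC. KCNV2, a silent subunit of the retina, was raised in DE, with 0.0294 and 0.0281 CPM in hPSC, 0.929 and 1.23 in DE, 0.23 and 0.587 in GFP- sBC, and 0.832 and 3.2 in GFP+ sBC (5.20 ± 0.42, adjusted p = 8.51e-07).

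Among Kv partners 3 of 13 tested were higher and 2 lower in GFP+ sBC RNA than in hPSC, beside 30.4% and 30.9% of all genes. KCNE3, a single-span regulator of KCNQ1, had 7.97 and 7.03 CPM in hPSC, 10.4 and 9.42 in DE, 1.93 and 0.646 in GFP- sBC, and 0.143 and 0.107 in GFP+ sBC. Its GFP+ libraries were below all others (-5.89 ± 0.60, adjusted p = 1.44e-04). FLAG footprints of KCNE3 were not called between GFP+ sBC and hPSC (-0.85 ± 0.90, adjusted p = 0.439). KCNIP1, which binds KCND pores, had 0.559 and 0.464 CPM in hPSC, 0.0785 and 0.0916 in DE, 5.27 and 12.5 in GFP- sBC, and 1.98 and 10.3 in GFP+ sBC. The GFP+ libraries differed from each other several-fold (3.58 ± 0.80, adjusted p = 0.00608). KCNIP1 overlaps KCNMB1 on the opposite strand. KCNE4 had 0.633 and 0.633 CPM in hPSC, 0.706 and 0.733 in DE, 4.1 and 5.61 in GFP- sBC, and 7.43 and 7.7 in GFP+ sBC, higher in all sBC libraries (3.57 ± 0.30, adjusted p = 5.1e-05). KCNAB2, a cytoplasmic beta subunit, was highest in DE among hPSC, DE and GFP+ sBC, with 7.05 and 8.24 CPM in hPSC, 14.8 and 16.8 in DE, 20.4 and 7.61 in GFP- sBC, and 11.5 and 10.3 in GFP+ sBC (1.10 ± 0.10, adjusted p = 2.77e-06). KCNAB3 peaked in DE as well: it had 0.971 and 0.9 CPM in hPSC, 2.86 and 2.83 in DE, 1.2 and 0.235 in GFP- sBC, and 0.43 and 0.56 in GFP+ sBC (1.66 ± 0.17, adjusted p = 5.78e-06), and its total footprints were 0.41 and 0.238 CPM in hPSC and 1.99 and 1.83 in DE (2.57 ± 0.51, adjusted p = 0.0173). KCNAB2 and KCNAB3 RNA did not pass with the spread of all 8 RNA libraries (adjusted p = 0.105 and 0.0842), nor did KCNAB3 total footprints without hPSC Ribo replicate 1 or 2 (adjusted p = 0.104 to 0.145).

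**Figure D3:**
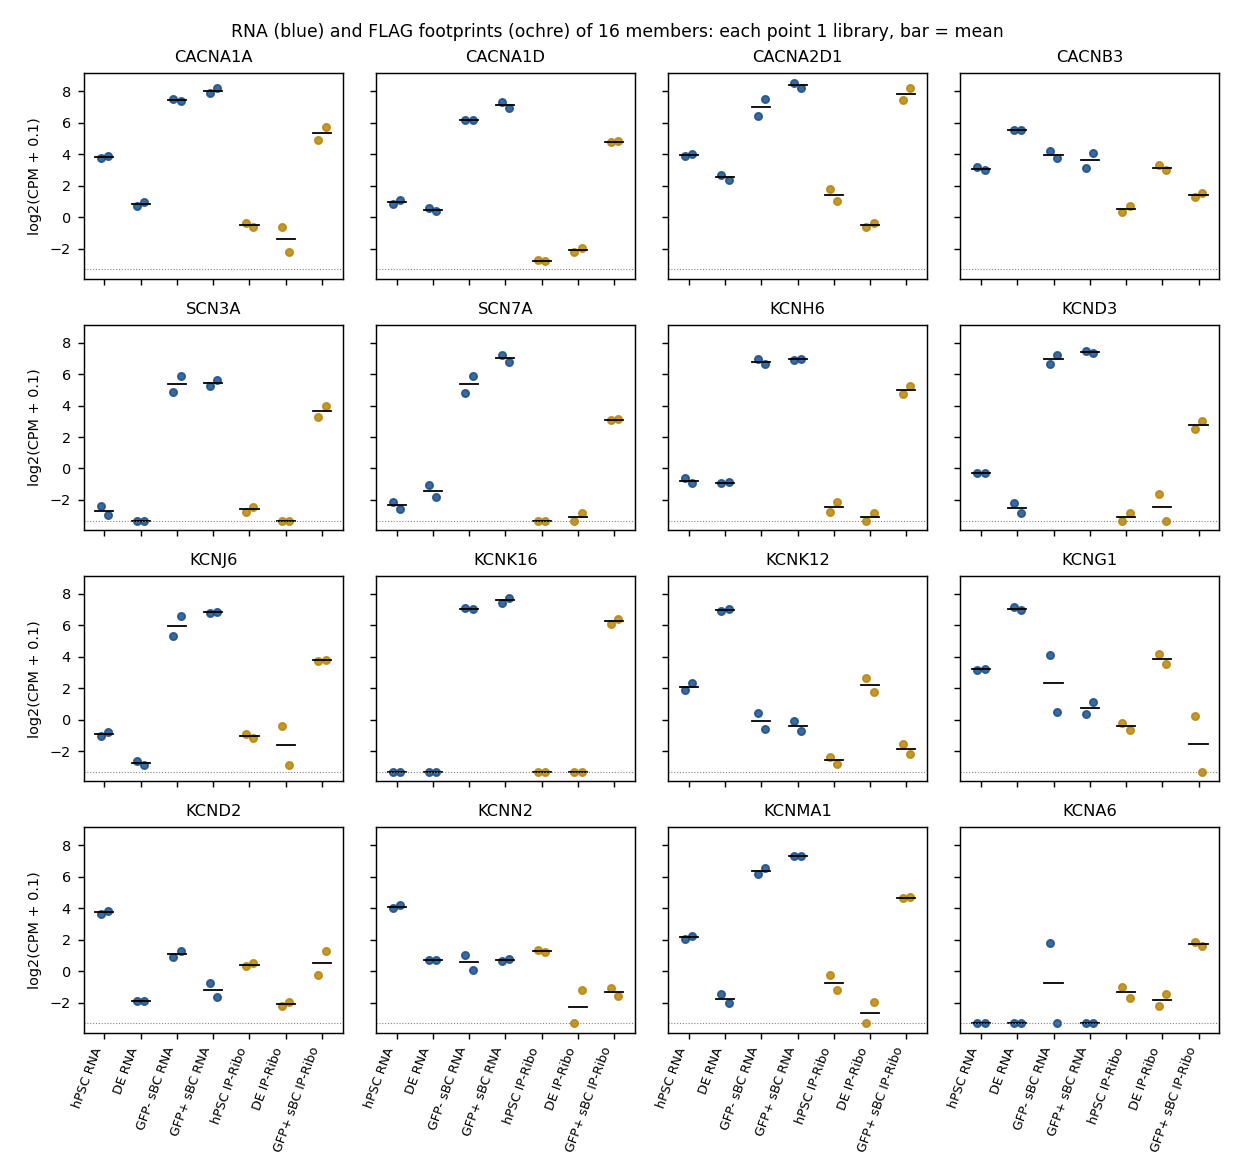
RNA (blue) and FLAG footprint (ochre) levels of 16 members by group as log2(CPM + 0.1), each point 1 library and each bar the mean; the dotted line marks 0 counts. CACNA1D, KCNH6, KCND3, KCNMA1 and KCNK16 are far higher in sBC groups than elsewhere, KCNK12 and KCNG1 are highest in DE, and KCND2 and KCNN2 RNA is highest in hPSC.

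Of 13 inward rectifiers tested, 6 were higher and 2 lower in GFP+ sBC RNA than in hPSC, beside 30.4% and 30.9% of all genes. The 6 tested in FLAG footprints passed the filter mainly through counts in sBC, and that all were called higher is no support. KCNJ6, a pore opened by G proteins, had 0.397 and 0.492 CPM in hPSC, 0.0654 and 0.0393 in DE, 39.8 and 96.2 in GFP- sBC, and 109 and 117 in GFP+ sBC. GFP+ libraries were highest and no sBC library overlapped with hPSC or DE (7.98 ± 0.53, adjusted p = 2.1e-05). KCNJ3, its usual partner, had 0.28 and 0.323 CPM in hPSC, 4.74 and 5.22 in DE, 28.2 and 57.5 in GFP- sBC, and 70.5 and 60.9 in GFP+ sBC. That gene was already higher in DE than in hPSC (4.09 ± 0.19, adjusted p = 1.15e-08) and higher again in sBC (3.72 ± 0.36, adjusted p = 1.23e-04 for GFP+ sBC over DE).

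KCNJ5, another partner of KCNJ3, had 0.294 and 0.394 CPM in hPSC, 2.22 and 2.55 in DE, 20 and 27.5 in GFP- sBC, and 17.5 and 24.6 in GFP+ sBC (5.92 ± 0.35, adjusted p = 1.49e-05), and its FLAG footprints, 0 and 0 CPM in hPSC, 0.223 and 0.189 in DE, and 2.21 and 3.96 in GFP+ sBC, were at least 46.4-fold higher in sBC than in hPSC. KCNJ2, a strong rectifier of resting cells, had 0.25 and 0.52 CPM in hPSC, 0.314 and 0.262 in DE, 12.2 and 17.2 in GFP- sBC, and 28.2 and 38.9 in GFP+ sBC (6.43 ± 0.44, adjusted p = 2.41e-05). KCNJ8, a pore that pairs with sulfonylurea receptors in vessels, had 0.559 and 0.802 CPM in hPSC, 0.131 and 0.288 in DE, 11.8 and 10.1 in GFP- sBC, and 28 and 23.4 in GFP+ sBC (5.23 ± 0.39, adjusted p = 3.58e-05). In each of these 3 genes the sBC libraries lay above all hPSC and DE libraries.

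KCNJ16 had 0.132 and 0.366 CPM in hPSC, 5.15 and 3.66 in DE, 7.09 and 19.2 in GFP- sBC, and 3.44 and 4.45 in GFP+ sBC. It was higher in DE than in hPSC and highest in GFP- replicate 2 (4.18 ± 0.36, adjusted p = 2.9e-05). KCNJ12 fell, with 2.71 and 2.49 CPM in hPSC, 6.64 and 7.38 in DE, 4.12 and 0.382 in GFP- sBC, and 0.516 and 0.24 in GFP+ sBC, highest in DE (-2.78 ± 0.95, adjusted p = 0.0358 for GFP+ sBC over hPSC), a call lost without any 1 of the 4 libraries (adjusted p = 0.0818 to 0.198) and over protein-coding genes alone (adjusted p = 0.0537). KCNJ10, known from glia and kidney, also fell and had 1.13 and 1.2 CPM in hPSC and 0.0573 and 0.0533 in GFP+ sBC (-4.34 ± 0.51, adjusted p = 2.49e-04). KCNJ12 and KCNJ18 are near-identical copies, so their reads may be split or shared.

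Of the K2P channels, which leak potassium at rest, 7 of 13 tested were higher and 2 lower in GFP+ sBC RNA than in hPSC, beside 30.4% and 30.9% of all genes. KCNK16 and KCNK17 are pancreatic K2P channels that open in alkaline conditions, and with KCNK5 they form a cluster on chromosome 6 (KCNK5 chr6:39188971-39229475, minus strand; KCNK17 chr6:39299001-39314419, minus strand; KCNK16 chr6:39314570-39322968, minus strand; RefSeq, GRCh38.p14). KCNK16 had 0 and 0 CPM in hPSC, 0 and 0 in DE, 137 and 130 in GFP- sBC, and 174 and 212 in GFP+ sBC. No hPSC or DE library had a count, a level of at most 0.0324 to 0.0376 CPM by a floor of 3 counts a library. GFP+ sBC was at least 12748-fold higher than hPSC and GFP- sBC at least 8799-fold, where the bounds take 3 counts over the group. KCNK16 passed the filter only through sBC, so its call (adjusted p = 9.4e-06 for GFP+ sBC) is no support. The FLAG footprints of KCNK16 were also 0 in hPSC and DE and 69.2 and 84.4 CPM in GFP+ sBC, at least 1150-fold higher than hPSC.

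KCNK17 had 0.177 and 0.239 CPM in hPSC, 0.0131 and 0.0524 in DE, 57.1 and 68 in GFP- sBC, and 96 and 102 in GFP+ sBC. It was detected at trace level in hPSC and rose in all sBC libraries (8.88 ± 0.37, adjusted p = 6.22e-06). Its FLAG footprints in GFP+ sBC were 36.5 and 42.4 CPM (10.39 ± 0.56, adjusted p = 3.02e-05). KCNK5, the third gene of the cluster, was expressed throughout, with 17.3 and 16.7 CPM in hPSC, 11.1 and 11.5 in DE, 52.5 and 37.6 in GFP- sBC, and 25.6 and 31.3 in GFP+ sBC, and rose less (0.74 ± 0.23, adjusted p = 0.0228), a call lost without hPSC RNA replicate 1 or 2 or GFP+ RNA replicate 2 (adjusted p = 0.0788 to 0.133).

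The 3 promoters are shown because KCNK16 and KCNK17 went from 0 or trace to clear expression while the adjoining KCNK5 was present throughout. Each line gives the 250 bases before the RefSeq start (GRCh38.p14), from 5′ to 3′ on the gene's strand, with every CpG in capitals. KCNK16 (chr6:39322969-39323218) holds 1 CpG, KCNK17 (chr6:39314420-39314669) 8 and KCNK5 (chr6:39229476-39229725) 31, where the median of 15843 protein-coding promoters was 17 and that of the 98 members with an entry was 16.
KCNK16: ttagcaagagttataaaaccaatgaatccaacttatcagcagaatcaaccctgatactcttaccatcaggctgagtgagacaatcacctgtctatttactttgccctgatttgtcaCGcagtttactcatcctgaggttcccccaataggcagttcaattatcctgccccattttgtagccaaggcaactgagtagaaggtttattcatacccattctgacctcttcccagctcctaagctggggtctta
KCNK17: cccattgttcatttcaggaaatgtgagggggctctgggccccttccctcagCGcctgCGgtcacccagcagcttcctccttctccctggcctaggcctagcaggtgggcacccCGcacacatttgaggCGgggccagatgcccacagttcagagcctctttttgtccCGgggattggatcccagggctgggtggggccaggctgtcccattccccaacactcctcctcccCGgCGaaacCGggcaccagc
KCNK5: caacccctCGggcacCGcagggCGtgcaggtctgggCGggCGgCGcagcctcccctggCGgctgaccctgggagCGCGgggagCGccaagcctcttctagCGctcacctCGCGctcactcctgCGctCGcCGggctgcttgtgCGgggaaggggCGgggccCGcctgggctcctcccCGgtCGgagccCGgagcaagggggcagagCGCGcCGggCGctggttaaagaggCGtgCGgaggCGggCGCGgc

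The KCNK16 stretch holds the letters TATAAA, found in 9.42% of all promoters and in 8 of 98 members (8.16%), and that of KCNK17 holds CAGATG, found in 9.9% of all and in 16 of 98 (16.3%), searched on both strands. TAATTA was in 1 of 98 members (3.19% of all promoters) and TGTTTAC in 0 of 98 (2.3% of all). The letters TTCAGCACC, the left part of the element bound by REST, a repressor of neuronal genes, were in 3 of 98 members (3.06%) and 0.297% of all promoters. These 3 were KCNH6, KCNK3 and CACNG3, of which the first 2 rose in sBC and CACNG3 stayed under 1 CPM. Both promoters are shown with those letters, or their reverse complement, in capitals (KCNH6 chr17:63523108-63523357; KCNK3 chr2:26692472-26692721; GRCh38.p14, plus strand).
KCNH6: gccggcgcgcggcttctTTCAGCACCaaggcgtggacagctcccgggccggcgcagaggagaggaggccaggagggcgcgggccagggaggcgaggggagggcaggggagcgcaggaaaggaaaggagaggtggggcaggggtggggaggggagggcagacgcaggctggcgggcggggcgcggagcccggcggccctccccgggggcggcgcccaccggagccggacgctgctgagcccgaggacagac
KCNK3: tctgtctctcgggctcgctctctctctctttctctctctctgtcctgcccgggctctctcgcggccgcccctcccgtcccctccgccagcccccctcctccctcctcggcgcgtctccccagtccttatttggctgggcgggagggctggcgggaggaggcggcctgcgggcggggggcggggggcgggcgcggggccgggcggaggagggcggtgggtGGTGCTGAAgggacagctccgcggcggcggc

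KCNK3, an acid-sensitive leak channel, had 0.265 and 0.169 CPM in hPSC, 0.0654 and 0 in DE, 26.6 and 22.9 in GFP- sBC, and 21.4 and 24.5 in GFP+ sBC. It was under 1 CPM before and above 20 in all sBC libraries (6.71 ± 0.55, adjusted p = 5.26e-05). KCNK1 had 2.71 and 3.59 CPM in hPSC, 12.9 and 14.9 in DE, 10.8 and 10.9 in GFP- sBC, and 16.1 and 11.7 in GFP+ sBC, already higher in DE (2.20 ± 0.14, adjusted p = 3.05e-07). KCNK12 marked DE: it had 3.57 and 4.99 CPM in hPSC, 123 and 129 in DE, 1.24 and 0.558 in GFP- sBC, and 0.86 and 0.506 in GFP+ sBC. Its DE libraries stood above all others (4.92 ± 0.13, adjusted p = 1.17e-07 over hPSC, -7.52 ± 0.48, adjusted p = 2.08e-05 for GFP+ sBC over DE). Its FLAG footprints were 0.0968 and 0.0425 CPM in hPSC, 6.34 and 3.3 in DE, and 0.245 and 0.117 in GFP+ sBC, and its total footprints 0.182 and 0.0397 CPM in hPSC and 4.13 and 4.96 in DE, so the peak held in both kinds of footprint (5.84 ± 0.81, adjusted p = 0.00396 and 5.36 ± 0.60, adjusted p = 0.00418). The call in total footprints was lost without hPSC Ribo replicate 1 or 2 (adjusted p = 0.0517 to 0.0647). Its close relative KCNK13 had 0.485 and 0.492 CPM in hPSC, 1.41 and 1.01 in DE, 16.4 and 14.2 in GFP- sBC, and 12.9 and 16 in GFP+ sBC, highest in sBC (4.88 ± 0.31, adjusted p = 1.7e-05). KCNK6 had 6.3 and 6.74 CPM in hPSC, 17.4 and 17.9 in DE, 7.5 and 4.67 in GFP- sBC, and 5.68 and 5.7 in GFP+ sBC, highest in DE (1.49 ± 0.08, adjusted p = 5.01e-08). KCNK2, a stretch-sensitive channel, had 1.24 and 1.48 CPM in hPSC and 0.0523 and 0.0131 in DE, and it fell (-5.25 ± 0.41, adjusted p = 6.72e-07).

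In the family gated by calcium or sodium, 5 of 11 tested were higher and 3 lower in GFP+ sBC RNA. KCNMA1, the large-conductance pore that voltage and calcium open together, had 4 and 4.68 CPM in hPSC, 0.262 and 0.144 in DE, 72.2 and 93.9 in GFP- sBC, and 161 and 159 in GFP+ sBC. GFP+ libraries were highest and DE lowest (5.20 ± 0.29, adjusted p = 1.24e-05 for GFP+ sBC and -4.36 ± 0.25, adjusted p = 4.83e-08 for DE, each over hPSC). KCNMB4, a beta subunit that slows KCNMA1, ran against it with 31.5 and 30.6 CPM in hPSC, 19.6 and 19.1 in DE, 6.51 and 3.03 in GFP- sBC, and 2.7 and 2.66 in GFP+ sBC, lowest in GFP+ sBC (-3.54 ± 0.37, adjusted p = 1.52e-04). Its FLAG footprints were 1.21 and 1.23 CPM in hPSC, 2.45 and 0.947 in DE, and 0 and 0.117 in GFP+ sBC (-4.18 ± 1.18, adjusted p = 0.0178), a call lost without hPSC IP-Ribo replicate 1 or 2 or sBC IP-Ribo replicate 1 (adjusted p = 0.0699 to 0.0732). KCNMA1 overlaps 3 antisense transcripts.

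The small-conductance pores differed by paralog. KCNN2 had 16.1 and 18.2 CPM in hPSC, 1.5 and 1.52 in DE, 1.96 and 0.969 in GFP- sBC, and 1.46 and 1.63 in GFP+ sBC, and hPSC was above all others in RNA (-3.45 ± 0.11, adjusted p = 8.06e-10 for DE) and in FLAG footprints, 2.47 and 2.21 CPM in hPSC, 0 and 0.341 in DE, and 0.368 and 0.233 in GFP+ sBC (-2.91 ± 1.0, adjusted p = 0.0384 for GFP+ sBC). The footprint call of KCNN2 was lost without any 1 of the 4 libraries (adjusted p = 0.101 to 0.199) and by DESeq2 (adjusted p = 0.0662). KCNN1 peaked in DE with 9.71 and 10.1 CPM in hPSC, 21.8 and 21.3 in DE, 5.45 and 3.47 in GFP- sBC, and 1.09 and 2.21 in GFP+ sBC (1.18 ± 0.07, adjusted p = 1.07e-07). KCNN3 rose in sBC with 1.84 and 1.63 CPM in hPSC, 0.654 and 0.798 in DE, 9.6 and 22.1 in GFP- sBC, and 22.6 and 24 in GFP+ sBC (3.75 ± 0.42, adjusted p = 2.13e-04). KCNT2, a sodium-gated pore, had 5.06 and 5.41 CPM in hPSC, 4.07 and 3.42 in DE, 18.9 and 44.9 in GFP- sBC, and 73.6 and 53.7 in GFP+ sBC, highest in GFP+ sBC (3.60 ± 0.43, adjusted p = 2.92e-04).

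Few channel genes were called between the sorted fractions. Between GFP+ and GFP- sBC, 1 of 110 members tested was higher (0.909%) and 1 lower (0.909%), where 0.0808% of all genes were called higher and 2.35% lower, 2.43% in all. KCNH5, a voltage-gated pore of the eag group, had 1.91 and 3.76 CPM in GFP- and 17.9 and 12.7 in GFP+ libraries. The groups did not overlap (2.42 ± 0.49, adjusted p = 0.0494), but the call was lost without GFP+ RNA replicate 1 or 2 (adjusted p = 0.0712 to 0.269). KCNJ13, an inward rectifier of epithelia, had 0.691 and 1.12 CPM in GFP- and 0 and 0.0266 in GFP+ (-5.73 ± 1.09, adjusted p = 0.0396), a low level, and it lies within GIGYF2 on the opposite strand. The call of KCNJ13 was lost without GFP+ RNA replicate 1 (adjusted p = 0.123). Of 92 members tested and at 1 CPM in a sorted group, 71 differed by less than 1 on the log2 scale, 12 were higher by 1 or more and 9 lower by 1 or more. Of these 92, only KCNH5 was called. The SE of a member here was 0.32 to 1.49, median 0.51, so differences of 2-fold and more could go undetected with these libraries. An unadjusted p under 0.05 was found for 23 of 110 members, beside 2391 of 19797 genes.

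The GFP- libraries differed from each other more than those of GFP+ did, with a Spearman correlation across genes of 0.932 against 0.984. Counts of called members ran from 1 without GFP+ replicate 1 and 2 without GFP+ replicate 2 to 6 without GFP- replicate 1 and 44 without GFP- replicate 2 (29 higher, 15 lower). DESeq2 called 2 higher and 6 lower, the spread of all 8 RNA libraries gave 8 called, and no filter on low counts gave 11. The shares of all genes called in these settings, or without each library, are not given here. These counts therefore show nothing particular to channel genes. Beside this result, the 12 duct and progenitor markers summed to 2493 and 1876 CPM in GFP- and 255 and 387 in GFP+ RNA, with 11 and 8 of the 12 at 1 CPM. The 8 cell cycle markers summed to 255 and 122 and 52 and 53.5, and the 14 mesenchyme and muscle markers to 587 and 223 and 146 and 165. The 12 islet endocrine markers, by contrast, summed to 24242 and 15719 CPM in GFP- and 17974 and 21579 in GFP+, overlapping between the groups. The 10 beta cell markers summed to 2455 and 1765 CPM in GFP- and 6266 and 6459 in GFP+, and the 10 alpha and delta cell markers to 20620 and 13372 and 38156 and 25506. Both of these sums were higher in GFP+ with no overlap, but INS and GCG, with the levels given above, made up much of them. In each list 1 of 10 genes was called higher and 0 lower in the sort. The median log2 fold change was 1.28 for the beta cell list and 0.70 for the alpha and delta cell list. The part of such cells in the channel values was not tested. The plot of both sides of the sort shows members of all families near the diagonal.

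**Figure D4:**
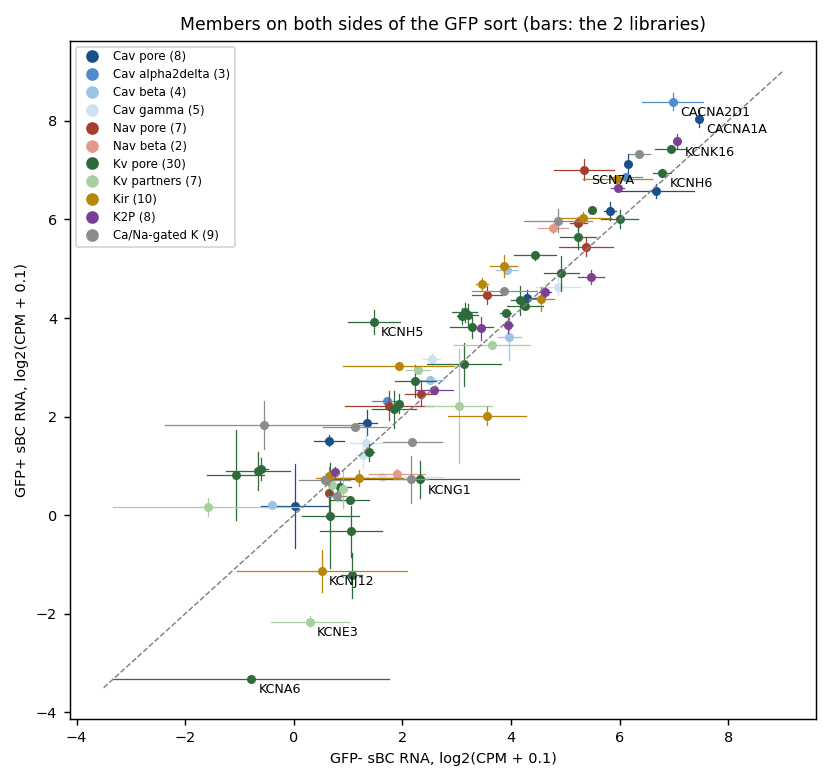
Members at 1 CPM or more in a sorted group, GFP- (x) against GFP+ (y) RNA as log2(CPM + 0.1), coloured by family; points are means over the 2 libraries, bars span both libraries and the dashed line marks equality. Of 92 tested, 71 lie within 1 log2 unit by the fitted change, and KCNH5 stands above the line.

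Footprints of most channel genes tested were higher in GFP+ sBC, as their RNA was. Against hPSC IP-Ribo 50 of 70 members tested were higher (71.4%) and 2 lower (2.86%), where 30.4% of all genes were called higher and 28.5% lower, and the median log2 fold change was 3.93 for members and -0.01 for all genes. Against DE IP-Ribo 48 of 70 were higher (68.6%) and 5 lower (7.14%), beside 27.8% and 24.8% of all genes. Only members with enough footprints in some group could be tested, and 59 reached 1 CPM in sBC IP-Ribo against 13 in hPSC and 16 in DE. Members that passed the filter through sBC alone had to be higher. The counts and the median therefore do not stand for all 135 and are no support by themselves. Of 69 members tested against hPSC in both assays, 44 were called higher in both, 2 lower in both (KCNN2 and KCNMB4) and 0 in opposite directions. RNA alone was called for 10, footprints alone for 5 and neither for 8. Agreement between the assays is not given over all genes here, so these counts show nothing particular to channel genes.

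Marker genes of another cell type also had footprints in GFP+ sBC. The 12 duct and progenitor markers summed to 1297 and 1448 CPM in GFP+ sBC IP-Ribo, with 10 at 1 CPM and PTF1A at 0. They summed to 521 and 736 CPM in hPSC IP-Ribo and 3138 and 1910 in DE IP-Ribo, so DE was the highest. In GFP+ sBC RNA they summed to 255 and 387. CFTR, the chloride channel of duct cells, had 216 and 336 CPM in GFP+ sBC IP-Ribo. Its RNA was 8.54 and 8.79 CPM in GFP+ and 399 and 829 in GFP- sBC. RNA and footprints were scaled apart, so the sizes of their values are not compared. The part of such cells in the channel footprints was not tested.

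**Figure D5:**
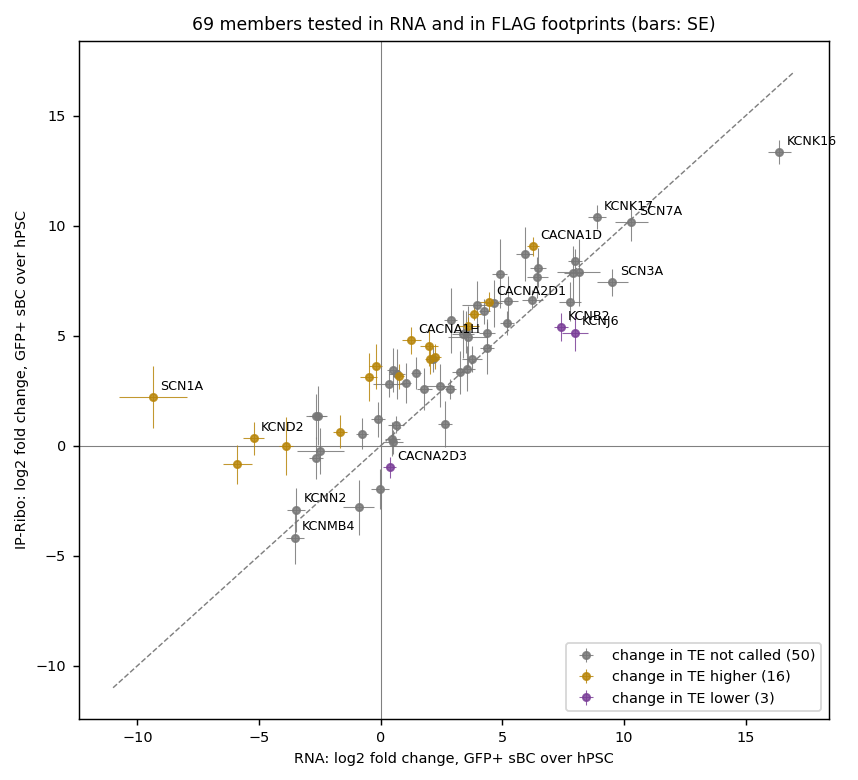
Log2 fold change of GFP+ sBC over hPSC in RNA (x) and FLAG footprints (y) for the 69 members tested in both, with SE bars, coloured by the test of translational efficiency (TE); the dashed line marks equal change. The 44 members higher in both assays fill the upper right, and 16 members called higher in TE lie above the line. Agreement of the assays over all genes is not shown.

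In the step from hPSC to DE the footprints were too few for most members. In IP-Ribo 5 of 70 tested were higher (7.14%) and 7 lower (10%), beside 9.78% and 12.5% of all genes. Leaving out 1 library in turn gave 3 without hPSC replicate 1, 4 without hPSC replicate 2, 5 without DE replicate 1 and 7 without DE replicate 2, in place of 12. In total footprints 11 of 37 were higher (29.7%) and 6 lower (16.2%), beside 17.2% and 16.9% of all genes (34.1% either way). No member was called there without either hPSC Ribo library, and the count was 10 under a stricter filter. By RNA, FLAG footprints and total footprints, 4 members were called higher in DE in all 3: KCNK12, KCNG1, CACNB3 and CACNA1H. CACNA2D1, CACNA2D3, KCND2, KCNG3 and KCNN2 were the 5 called lower in all 3. Each of the 12 and each of the 17 called in footprints was called in the same direction in RNA. How often this held over all genes is not given here. The library DE Ribo replicate 1 had 5.38 CPM of CACNA1A where replicate 2 had 0.276, so that value rests on 1 library.

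Translational efficiency, the change in FLAG footprints beyond the change in RNA, was tested as the interaction of assay and stage over 12 libraries. In sBC the footprints came from cells labelled with the lentivirus and the RNA from cells with no tag named. A change in efficiency and a difference between these cells therefore cannot be told apart in the values of sBC. For GFP+ sBC against hPSC 21 of 114 members were higher (18.4%) and 3 lower (2.63%), where 11% of all genes were called higher and 3.98% lower. Some rest on few reads: 9 of the 24 had under 10 footprint counts over both hPSC libraries. The highest fitted values were those of KCNS1 and SCN1A, which had 0 RNA counts in GFP+ sBC, so these values are no measure of size. KCNE3 and KCND2, also called higher, had 9 and 25 RNA counts over both GFP+ sBC libraries. CACNB4 rose by 5.70 ± 1.39, adjusted p = 0.0231. It had 10 footprint counts over both hPSC libraries and 76 RNA counts over both GFP+ sBC libraries. CACNA2D2 rose by 1.91 ± 0.28, adjusted p = 0.00131, CACNA2D1 by 1.85 ± 0.41, adjusted p = 0.0119, CACNA1D by 2.73 ± 0.56, adjusted p = 0.00815 and KCNK5 by 2.17 ± 0.53, adjusted p = 0.0198. KCNT2 rose by 1.63 ± 0.36, adjusted p = 0.0129, and KCNH2 by 1.60 ± 0.38, adjusted p = 0.0165. The call of CACNA2D1 was lost without GFP+ RNA replicate 2, hPSC IP-Ribo replicate 2 or sBC IP-Ribo replicate 2 (adjusted p = 0.0531 to 0.0919), and that of CACNA1D without hPSC IP-Ribo replicate 1 or 2 (adjusted p = 0.0779 to 0.116) and by DESeq2 (adjusted p = 0.0569). The call of KCNK5 was lost without hPSC RNA replicate 1 or 2, GFP+ RNA replicate 1 or 2, hPSC IP-Ribo replicate 1 or 2 or sBC IP-Ribo replicate 2 (adjusted p = 0.0563 to 0.0946). The call of KCNT2 was lost without hPSC RNA replicate 2, hPSC IP-Ribo replicate 1 or 2 or sBC IP-Ribo replicate 2 (adjusted p = 0.0519 to 0.0977), and that of KCNH2 without hPSC RNA replicate 1 or 2, GFP+ RNA replicate 1, hPSC IP-Ribo replicate 1 or sBC IP-Ribo replicate 1 or 2 (adjusted p = 0.0543 to 0.158). CACNA2D2 kept its call without each of these libraries. Lower were KCNJ6 (-3.06 ± 0.69, adjusted p = 0.0136), KCNB2 (-2.19 ± 0.60, adjusted p = 0.0334) and CACNA2D3 (-1.60 ± 0.43, adjusted p = 0.0289). The call of KCNB2 was lost without hPSC RNA replicate 1 or 2, GFP+ RNA replicate 1 or 2 or hPSC IP-Ribo replicate 1 (adjusted p = 0.0735 to 0.426), and that of CACNA2D3 without hPSC RNA replicate 1 or 2 or GFP+ RNA replicate 1 or 2 (adjusted p = 0.0714 to 0.166). KCNJ6 thus gained RNA and footprints in sBC, but footprints by less (without hPSC RNA replicate 1 or hPSC IP-Ribo replicate 1 (adjusted p = 0.0529 to 0.0646), not called), and its locus holds the antisense transcript KCNJ6-AS1.

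Only 3 members, CACNA2D2, KCNK5 and CACNB3, had 10 counts or more in every library of that fit. Refitted over genes with that depth, CACNA2D2 rose by 1.96 ± 0.27 (adjusted p = 0.000374) and KCNK5 by 2.22 ± 0.48 (adjusted p = 0.00631), while CACNB3 had 0.13 ± 0.50 (adjusted p = 0.874). Against DE, 13 of 114 members were higher (11.4%) and 1 lower (0.877%), beside 8.84% and 5.32% of all genes, and the lower one was again KCNJ6 (-5.34 ± 1.11, adjusted p = 0.01), not called without DE IP-Ribo replicate 1 (adjusted p = 0.349). For DE against hPSC edgeR called 0 of 114 members, beside 0.0991% of all genes higher and 0.0675% lower. There 13 of 114 members had an unadjusted p under 0.05, beside 2354 of 22210 genes, DESeq2 called 1, and 6 were called without DE IP-Ribo replicate 2. In TE against hPSC, 7 of 11 duct and progenitor, 5 of 11 mesenchyme and muscle and 4 of 8 cell cycle markers were called higher, beside 11% of all genes. For islet endocrine, beta, and alpha and delta markers it was 3 of 12, 0 of 10 and 1 of 10. For enterochromaffin, endothelial and immune, and neural and Schwann markers it was 1 of 8, 0 of 4 and 3 of 11. For pluripotent and definitive endoderm markers it was 1 of 8 and 3 of 8. The part of other cells in the TE values was not tested. Without 1 library the 24 called against hPSC became 10 without hPSC RNA replicate 1 or 2, 12 and 13 without GFP+ RNA replicate 1 or 2, and 9 and 14 without hPSC IP-Ribo replicate 1 or 2. The 14 called against DE became 5 without DE RNA replicate 1 or 2, 9 and 8 without GFP+ RNA replicate 1 or 2, and 9 without DE IP-Ribo replicate 2.

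A list of 62 other channel and calcium handling genes, taken for their function, leaned the same way as the members. It holds the KATP subunits, accessory and leak channels, glutamate receptor, calcium release and pump genes. In GFP+ sBC RNA 37 of 62 were higher than in hPSC and 15 lower (median log2 fold change 1.51), beside 30.4% and 30.9% of all genes. In FLAG footprints 43 of 55 were higher and 3 lower, beside 30.4% and 28.5%. Genes that passed the footprint filter only through sBC had to be higher. In the sort 0 of 62 were higher and 3 lower, beside 0.0808% and 2.35%. ABCC8, the sulfonylurea receptor of KATP channels, had 0.25 and 0.422 CPM in hPSC, 0.144 and 0.157 in DE, 410 and 302 in GFP- sBC, and 457 and 499 in GFP+ sBC (10.46 ± 0.36, adjusted p = 5.5e-06). Its partner KCNJ11 had 3.69 and 4.29 CPM in hPSC, 1.48 and 1.28 in DE, 169 and 89 in GFP- sBC, and 148 and 158 in GFP+ sBC (5.26 ± 0.35, adjusted p = 2.27e-05).

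DPP6, a partner of KCND pores, had 1.19 and 0.9 CPM in hPSC, 0.235 and 0.157 in DE, 64.3 and 78.1 in GFP- sBC, and 116 and 139 in GFP+ sBC, so it rose with KCND3 (6.93 ± 0.31, adjusted p = 6.75e-06). GRIA2, an AMPA receptor subunit, went from 0 or trace to 21.2 and 23.4 CPM in GFP+ sBC. FGF13, which binds the tail of Nav pores, had 45.1 and 45.5 CPM in hPSC, 72.1 and 73.2 in DE, 9.21 and 9.84 in GFP- sBC, and 9.55 and 10.5 in GFP+ sBC and fell in sBC (-2.18 ± 0.18, adjusted p = 5.05e-05), as did CACHD1, a relative of the alpha2delta subunits (-3.77 ± 0.35, adjusted p = 8.41e-05). UNC80, part of the sodium leak channel complex, had 7.02 and 6.78 CPM in hPSC, 8.66 and 9.51 in DE, 80 and 81 in GFP- sBC, and 115 and 98.5 in GFP+ sBC, so it rose in RNA (3.95 ± 0.20, adjusted p = 8.64e-06) but less in footprints (0.91 ± 0.30, adjusted p = 0.0323), and its TE was lower (-3.28 ± 0.28, adjusted p = 1.07e-04).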

How the data were processed

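RNA, total ribosome footprints and FLAG pull-down footprints were sequenced from 18 libraries in 9 groups of 2. The deposited table holds estimated counts per gene, which are not whole numbers. The submitters' processing notes name Salmon, Bowtie, cutadapt, UMI-tools and DESeq2 and the build GRCh38, without versions or roles. The annotation release, the strand setting and how deposited counts handle shared reads are not given in the sources used here. Per the labels' protocols, ribosomal RNA was depleted and footprints were cut with RNase I after lysis without cycloheximide.

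Of 57808 rows, 57030 matched a gene name (98.7%). Counts were rounded to whole numbers and fitted with edgeR 4.0.16 in R 4.3.3 (quasi-likelihood test, robust, TMM scaling, filterByExpr), with Benjamini-Hochberg adjustment over all genes tested in each of 12 comparisons. The sort, RNA of DE over hPSC and Ribo were each fitted on the 4 libraries of the groups compared. The other RNA comparisons were fitted on all 8 RNA libraries and IP-Ribo on all 6 of its libraries. Translational efficiency was fitted on 12 libraries. Detection means a group mean of 1 CPM. The fitting scripts were tested on simulated data. Members were named in the text from 48 subunits known from beta cell or neuroendocrine physiology, from the up to 5 largest called changes in each direction of a comparison (a mean of 1 CPM in a group and no overlap between libraries), and where an alternative turned a call. A rule on footprints per coding length could not be used without lengths. Some members are not reported by name here. Other members of the same families were named after their values were seen. Members and lists were chosen with earlier results of these data known, and so support nothing by themselves.

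Alternatives were other scaling, filters and tools, protein-coding genes alone, a fold threshold, a replicate block and leaving out each library. Same-numbered libraries did not deviate together (correlations of -0.24 to 0.15), so the numbers were not taken as pairs. In none of the 9 groups did the 2 libraries agree within sampling noise. Promoters are RefSeq's for GRCh38.p14. Without gene lengths, no level was compared between genes.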

Additional observations from a re-analysis of the deposited data

Results flagged for a closer look

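The change of footprints relative to RNA differed between stages for 24 members between GFP+ sBC and hPSC and for 14 members between GFP+ sBC and DE, by edgeR's interaction test of assay and stage. The FLAG pull-down of sBC used lentiviral RPL22-FLAG and that of hPSC and DE did not name a lentivirus, so tag delivery and stage cannot be told apart in these values. The RNA of GFP+ sBC came from cells with no tag named, so a difference between the cells of each assay cannot be told apart either.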

How the results depend on the processing

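No named change reversed under an alternative: of 104 named changes, 75 kept their side of the threshold in each one run, 28 fell below it in at least 1 and 1 rose above it. For the GFP sort, the 2 members called became 11 with no filter on low counts, 1 with a stricter filter, 0 against a log2 fold change of 1 (glmTreat), 8 by DESeq2 and 8 with all 8 RNA libraries. Against that fold, the counts were 56 for RNA and 3 for IP-Ribo of DE over hPSC, 6 for Ribo, and 8 and 7 for TE of GFP+ sBC over hPSC and DE. RNA of DE over hPSC gave 61 with all 8 RNA libraries. With protein-coding genes alone, IP-Ribo of DE over hPSC gave 20 and TE of GFP+ sBC over DE 24. A stricter filter left 10 in Ribo. DESeq2 called 1 in TE of DE over hPSC. With at least 10 counts in every library, 2 members remained called in TE of GFP+ sBC over hPSC and 2 over DE, a filter added after seeing the data that fewer genes pass. With both libraries at 1 CPM, 7 members were detected in DE IP-Ribo. The replicate block gave 7 members in the sort and 10 in Ribo, kept the other counts within 1.5 times, and ended the calls of KCND2 and KCNN2 in IP-Ribo and CACNA2D3 in TE. With the DE numbers exchanged, chosen after seeing the data, the block gave 11 in Ribo and 9 in IP-Ribo. Leaving out each library in turn gave 1 to 44 members in the sort, 80 to 90 in RNA of DE over hPSC, 67 to 77 in GFP+ sBC over hPSC, 73 to 81 over DE, and 63 to 88 in GFP- sBC over hPSC. In IP-Ribo it gave 3 to 7 for DE over hPSC, 35 to 41 for GFP+ sBC over hPSC and 39 to 48 over DE, in Ribo 0 to 14, and in TE 0 to 6, 9 to 20 and 5 to 20 for DE over hPSC and GFP+ sBC over hPSC and over DE. Relative log expression scaling moved the median TE change of all genes from 0.16 to -0.06 for DE over hPSC and from 0.07 to -0.06 for GFP+ sBC over hPSC, and the genes called there from 2443 higher and 884 lower to 2179 and 1305, with 18 members higher and 3 lower. Where 1 library was left of a group, it was assumed to vary like the others. The cause of these changes was not tested. Apart from the scaling of TE, shares of all genes called under the alternatives are not given here. The member counts therefore show nothing particular to channel genes. In footprints, 3 counts made up to 0.454 CPM in the shallowest library.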

Other observations

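Several members had values in one assay that the other did not mirror. KCNA6, a Kv pore, had RNA of 0 and 0 CPM in hPSC, 0 and 0 in DE, 3.29 and 0 in GFP- sBC, and 0 and 0 in GFP+ sBC, so it is listed at 0 in 7 of 8 RNA libraries. An exact 0 can be a failed estimate, and whether these are was not tested. Its FLAG footprints were nevertheless 0.387 and 0.212 CPM in hPSC, 0.111 and 0.265 in DE, and 3.55 and 2.91 in GFP+ sBC, and its total footprints 0.228 and 0.357 CPM in hPSC and 0.147 and 0 in DE. The footprints were called higher in GFP+ sBC than in hPSC (3.43 ± 0.73, adjusted p = 0.00529), a call lost without hPSC IP-Ribo replicate 2 (adjusted p = 0.0619). KCNH8 and KCNS3 showed the reverse: with 24.9 and 16.7 CPM of RNA in GFP+ sBC, KCNH8 had 0.123 and 0.583 CPM of footprints, and KCNS3 had 23.4 and 38.4 CPM of RNA and 0.858 and 0.932 of footprints. KCNJ15, an inward rectifier, had 8.49 and 7.57 CPM of RNA and 0.613 and 0 of footprints. RNA and footprint values were scaled apart, so only their presence or near absence is compared here. KCNJ18 had FLAG footprints of 0 and 1.51 CPM in GFP+ sBC, all in 1 library, and cannot be told apart from KCNJ12.

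GFP- replicate 1 held more of several members than its replicate: KCNG1 had 17.6 and 1.32 CPM in the 2 GFP- libraries, KCNJ12 4.12 and 0.382 and CACNG8 6.61 and 1.32. GFP- replicate 2 held more KCNJ16 (7.09 and 19.2 CPM) and KCNMB2 (0.0921 and 2.35 CPM). These genes were chosen after their values were seen.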
